A study of Caenorhabditis elegans with 2 samples.

Results

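Intron and intergenic peaks that lie away from promoters and from RNA genes were 402 of the 1537 nuclear EGL-44::GFP peaks, or 26.2% (95% Wilson interval 24 to 28.4). A peak entered the set when its summit lay outside the stretch from 1000 bp upstream to 200 bp downstream of every protein-coding transcript start, lay in no exon of a protein-coding gene, and had no tRNA, snoRNA, snRNA, rRNA or ncRNA gene start within 300 bp. The rule used position only, not signal, replicate or sequence. Of the 402 members, 141 lay in introns of protein-coding genes and 261 between genes. They are compared below with the other 1135 nuclear peaks, and with 31297 weaker regions of the authors' pooled ranked list, which meet the same location rule but have an irreproducible discovery rate (IDR, the estimated share of findings that would not repeat) above 0.01.

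The study mapped where EGL-44 sits on the chromatin of whole Caenorhabditis elegans by ChIP-seq, in which crosslinked and sonicated chromatin is immunoprecipitated and the recovered DNA is sequenced. The 2 biological replicates were whole young adults aged 66.5 hours, synchronised by bleaching and starvation as L1 larvae. Both were strain RW12173, in which CRISPR inserted GFP at egl-44 as allele st12173 with an unc-119(+) marker and loxP sites, in an unc-119(tm4063) III background. The antibody was directed against GFP. There was 1 group, so no condition was compared. The tag reports the fusion protein in all tissues at once, so a peak cannot be assigned to a cell type, and a control library was not analysed here.

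EGL-44 is the worm TEAD protein, a DNA-binding transcription factor with a TEA domain. TEAD proteins act at enhancers and promoters with partners such as YAP, the effector of the Hippo pathway, and in mammals they recognise the word CATTCC, which reads GGAATG on the other strand. In worms EGL-44 works with the zinc finger protein EGL-46, for example to repress touch receptor neuron genes in other neurons. In compact worm genomes, introns and the longer gaps between genes can hold distal regulatory elements, and also interspersed repeats.

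The summit windows below are those of the strongest members listed by both replicates, in introns (cmk-1, unc-104) and between genes (K08F11.1, cmd-1, sup-26). Each window is the plus strand of the RefSeq WBcel235 (ce11) genome, read to 100 bp on either side of the summit. A region is named by its host gene or, between genes, by the nearest protein-coding start. With the T24H10.5 window given further on, these windows make up the 3 strongest of each location under that choice. The windows lie at chrIV:1831268-1831468, chrII:7001554-7001754, chrIV:4727953-4728153, chrV:1151369-1151569 and chrIII:4282058-4282258. Capitals mark any copy, on either strand, of AGAGAC or its overlapping partner GAGAGA, of the E-box CACGTG, of the word TGATAA or of the TEAD word CATTCC, all counted across the set further on.
cmk-1: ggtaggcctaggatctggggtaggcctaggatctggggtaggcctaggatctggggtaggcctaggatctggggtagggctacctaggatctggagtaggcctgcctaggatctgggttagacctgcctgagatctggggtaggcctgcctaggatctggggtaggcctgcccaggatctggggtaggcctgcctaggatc
unc-104: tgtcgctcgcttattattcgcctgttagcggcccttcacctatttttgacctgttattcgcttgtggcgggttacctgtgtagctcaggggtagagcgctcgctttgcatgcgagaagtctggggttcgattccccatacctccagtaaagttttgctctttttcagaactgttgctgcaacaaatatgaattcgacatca
K08F11.1: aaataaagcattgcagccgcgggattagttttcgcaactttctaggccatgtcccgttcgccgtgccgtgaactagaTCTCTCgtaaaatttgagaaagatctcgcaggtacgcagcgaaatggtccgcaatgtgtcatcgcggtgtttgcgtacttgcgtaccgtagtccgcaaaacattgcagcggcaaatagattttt
cmd-1: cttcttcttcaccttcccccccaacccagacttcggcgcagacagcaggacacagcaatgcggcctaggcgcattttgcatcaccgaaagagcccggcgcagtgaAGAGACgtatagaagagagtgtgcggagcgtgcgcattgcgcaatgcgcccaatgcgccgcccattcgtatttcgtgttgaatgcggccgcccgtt
sup-26: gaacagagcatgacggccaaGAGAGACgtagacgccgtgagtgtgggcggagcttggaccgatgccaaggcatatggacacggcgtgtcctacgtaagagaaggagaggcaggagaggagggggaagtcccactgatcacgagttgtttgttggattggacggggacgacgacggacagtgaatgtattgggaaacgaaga

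The cmk-1 window held no capitals. It was an imperfect repeat in which a word of 10 bases occurred 7 times. A word of this length occurred at least 3 times in 35 member windows (8.71%), in 7.27% of weaker windows and in 3.61% of promoter windows. The unc-104 window held no capitals either, but it contained GGTTCGANNCC, the box B word of tRNA genes, and its summit lay 27 bp from the start of the annotated tRNA pseudogene C52E12.t1. K08F11.1 and sup-26 each held GAGAGA, and cmd-1 and sup-26 each held AGAGAC.

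The strongest members came from both locations and were high in both replicates. The authors' pooled signal of the 402 members had a median of 77.7 and ran from 2.22 to 292, in a unit that the sources used here do not give. The strongest, between genes 2907 bp downstream of the K08F11.1 start, had a pooled signal of 292, with 176 in replicate 1 and 119 in replicate 2. It ranked 8 among the 1537 nuclear peaks. The next, 4802 bp upstream of cmd-1, which encodes calmodulin, had a pooled signal of 255, with 167 in replicate 1 and 89.4 in replicate 2. The strongest intron member lay in intron 2 of 6 of cmk-1, the calmodulin-dependent protein kinase I gene. Its pooled signal was 255, with 119 in replicate 1 and 109 in replicate 2. All 3 therefore stood far above the median in either library.

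Among the other intron members of highest signal were peaks in genes of transport, signalling and autophagy. The peak in intron 5 of 23 of unc-104, the kinesin that carries synaptic vesicle precursors, had a signal of 86.7 in replicate 1 and 79.3 in replicate 2. That in the last of 7 introns of mom-1, which is needed for Wnt secretion, had 109 and 52.3. That in intron 2 of 5 of epg-9, an autophagy gene, had 98.1 and 71. Peaks in T24H10.5, pmt-2, ptr-17, T23B5.3, Y41G9A.17 and mdt-26 completed the 10 strongest in introns, with pooled signals from 142 to 173. pmt-2 encodes a methyltransferase of phosphatidylcholine synthesis, and mdt-26 a Mediator subunit. Of the 10, 8 were in both replicates' own lists. The exceptions were ptr-17 and mdt-26, which only replicate 1 listed.

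Between genes, sup-26, an RNA-binding protein gene, lay 1934 bp from its peak, whose signal was 142 in replicate 1 and 97.2 in replicate 2. The peak 2256 bp downstream of the start of zip-11, a bZIP factor gene, had 141 and 85.5. The remaining 6 of the 10 strongest, nearest to fbxa-190, C46C2.7, Y102A11A.1, Y41E3.13, K07D4.2 and W02H3.3, had pooled signals from 203 to 235. All 10 were in both replicates' own lists.

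Each replicate's own list held a minority of the set. Both thresholded lists held 79 of the 402 members, 19.7% (16.1 to 23.8), where 23.2% of all nuclear peaks were in both lists. A further 89 members were in replicate 1's list only, 41 in replicate 2's list only, and 193 in neither. The authors' conservative list, also made from both replicates, held 305 of the members (75.9%). The pooled signal had a median of 68.4 for members in neither list and of 129 for those in both lists. The pooled list was derived from the alignments of both replicates, per the files' own notes. For the 1135 other nuclear peaks the share in both lists was 24.4%, an odds ratio of 0.758 (95% interval 0.564 to 1.01, Fisher's exact test, adjusted p = 0.0697 over 9 tests). The difference did not pass the test. Without the 512 peaks at RNA genes the other peaks stood at 18%, and the odds ratio turned to 1.12 (Fisher's exact test, adjusted p = 0.654). Here and below, regions are counted and regions are not replicates of a condition, so each p describes these lists and not the spread between worms.

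Pooled signal was compared in the same way. Of the members, 43.8% exceeded the median signal of all nuclear peaks, against 52.2% of other peaks (odds ratio 0.714, 0.564 to 0.904, Fisher's exact test, adjusted p = 0.00797). Against the 623 other peaks away from RNA genes the shares were 43.8% and 43%, with an odds ratio of 1.03 (Fisher's exact test, adjusted p = 0.846). On a single replicate's lists the odds ratio did not pass either (0.874 without replicate 1 and 0.881 without replicate 2). Intron members had a median of 73.2 and intergenic members 79.7, and their shares in both lists were 15.6% (10.5 to 22.5) and 21.8% (17.3 to 27.2), intervals that overlap.

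Of the members, 392 had a value in both replicates' ranked lists, which hold weaker regions too. Replicate 1 ran from 18.8 to 176 with a median of 46.8, and replicate 2 from 13.5 to 121 with a median of 34.1. Across these members the log2 signals had a Pearson r of 0.521 and a Spearman rho of 0.402, given as a description since members of 1 library share its depth. The other nuclear peaks had a Spearman rho of 0.42. There were 17 members with a pooled signal under 20, and 16 of them overlapped another nuclear peak, as in pqn-41 and hpo-38. For such shoulders the replicate value is that of the strongest overlapping region, so it can be the neighbour's.

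**Figure D1:**
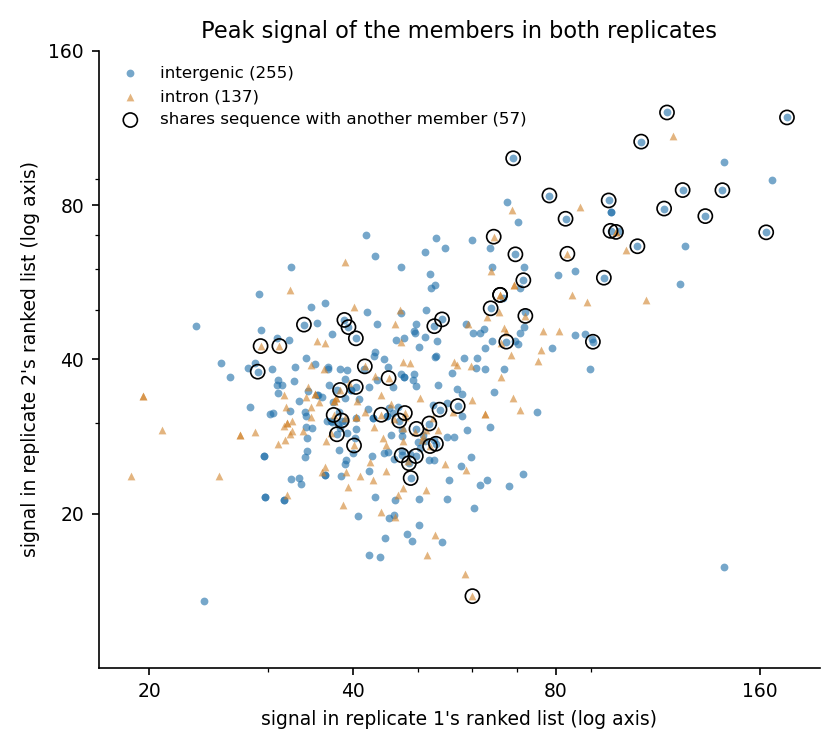
Signal of the 392 members with a value in both replicates' ranked lists, replicate 1 on the x axis and replicate 2 on the y axis, both log axes. Triangles are intron members, points are intergenic members, and rings mark members whose window shares sequence with another member. Rings are frequent at the upper right, where both replicates are high.

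Several of the strongest members shared sequence. Summit windows were compared with each other, and 60 of the 402 members (14.9%, 11.8 to 18.7) shared at least 10 words of 24 bases, on either strand, with a member whose summit lay over 310 bp away. The same held, towards a member elsewhere, for 1.6% of weaker regions and for 4.49% of other nuclear peaks. This grouping was made after the sequences and values had been seen, so it carries no test. The 60 fell into 11 families, of which 9 had 3 or more members.

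The lists of both replicates held a larger share of these 60 than of the other members, given as a description. Of the 60, 27 were in both lists, 45% (33.1 to 57.5), against 52 of the other 342, 15.2% (11.8 to 19.4). They made up 28.7% of the 101 members of highest signal and 4.95% of the 101 of lowest signal. Their median pooled signal was 89.2, and that of the other members 76.1. The handling of reads that map to several places is unknown here and its part in these values was not tested.

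**Figure D2:**
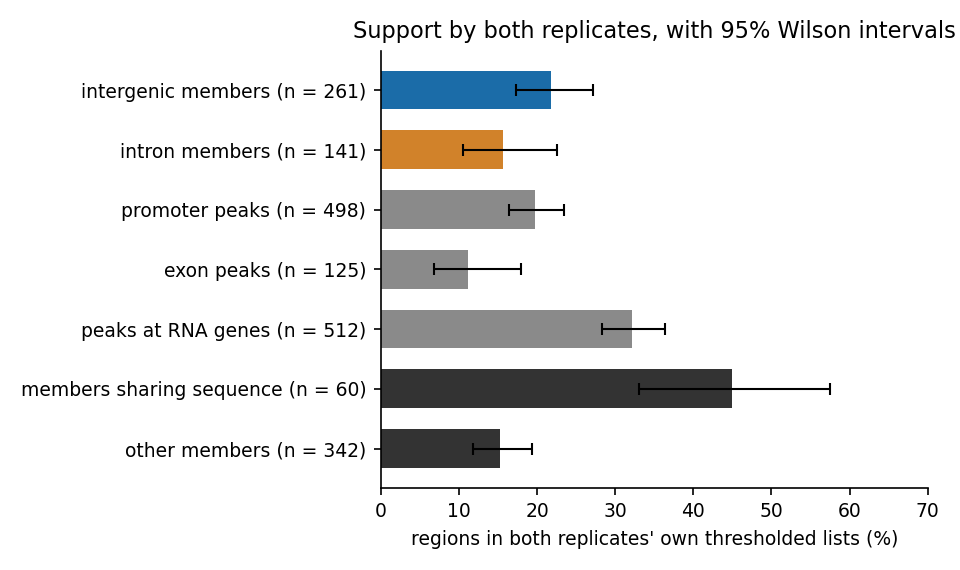
Share of regions found in both replicates' own thresholded lists, in percent, for intergenic and intron members, for the other classes of nuclear peaks, and for members split by shared sequence. Bars start at 0, lines are 95% Wilson intervals and n counts regions. Members sharing sequence stand at 45% and the other members at 15.2%.

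The 3 largest families are shown by their 2 strongest members that both replicates listed. Capitals mark bases inside 20-base words held by at least 50% of the family, so they show what the copies have in common. Family 1 is given by fbxa-190 (chrX:1375173-1375373) and Y102A11A.1 (chrX:2057899-2058099), family 2 by F57A10.2 (chrV:15767476-15767676) and T24H10.5 (chrII:9102733-9102933), and family 3 by F48F7.5 (chrX:13973169-13973369) and nhr-277 (chrIV:2740138-2740338). Each is the plus strand of the same genome over a window of the same length.
fbxa-190: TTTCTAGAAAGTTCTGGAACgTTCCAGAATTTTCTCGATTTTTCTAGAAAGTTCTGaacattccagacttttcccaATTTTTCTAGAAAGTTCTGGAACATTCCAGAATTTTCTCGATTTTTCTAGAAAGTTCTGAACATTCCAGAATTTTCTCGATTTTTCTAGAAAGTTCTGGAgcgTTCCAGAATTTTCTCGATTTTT
Y102A11A.1: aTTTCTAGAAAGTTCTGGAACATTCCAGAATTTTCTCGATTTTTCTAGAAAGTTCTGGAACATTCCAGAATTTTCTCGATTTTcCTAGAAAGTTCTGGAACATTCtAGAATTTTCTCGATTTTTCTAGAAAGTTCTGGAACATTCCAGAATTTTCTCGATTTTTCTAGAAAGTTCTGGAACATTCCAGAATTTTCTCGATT
F57A10.2: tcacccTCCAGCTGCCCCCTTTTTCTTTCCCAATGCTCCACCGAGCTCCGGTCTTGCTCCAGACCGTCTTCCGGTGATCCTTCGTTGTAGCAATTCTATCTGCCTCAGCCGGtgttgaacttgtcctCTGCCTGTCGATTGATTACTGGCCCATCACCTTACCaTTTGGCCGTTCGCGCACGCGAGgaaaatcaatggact
T24H10.5: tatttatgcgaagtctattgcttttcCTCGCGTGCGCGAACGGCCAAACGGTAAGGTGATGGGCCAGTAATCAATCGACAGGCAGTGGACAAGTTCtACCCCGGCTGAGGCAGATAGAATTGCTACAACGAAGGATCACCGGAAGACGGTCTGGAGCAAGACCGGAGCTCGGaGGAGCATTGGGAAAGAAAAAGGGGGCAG
F48F7.5: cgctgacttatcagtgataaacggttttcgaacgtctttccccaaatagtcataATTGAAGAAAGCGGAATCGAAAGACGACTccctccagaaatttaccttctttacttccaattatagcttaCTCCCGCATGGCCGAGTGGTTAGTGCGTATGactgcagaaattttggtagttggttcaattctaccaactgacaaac
nhr-277: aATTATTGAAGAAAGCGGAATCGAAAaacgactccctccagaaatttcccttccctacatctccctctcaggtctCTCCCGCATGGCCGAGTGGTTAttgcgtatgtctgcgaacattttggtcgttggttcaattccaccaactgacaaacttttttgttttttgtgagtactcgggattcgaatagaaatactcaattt

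Family 1 had 13 members, 11 of them between genes, with pooled signals from 63.7 to 235. Every window was a tandem array in which GAANNTTC and TTCNNGAA, the head-to-head and tail-to-tail arrangements of the heat shock element unit, together occurred 23 to 30 times. Over all windows of this length, GAANNTTC was held by 12.2% of members and 13.8% of weaker regions, and TTCNNGAA by 9.2% and 12.5%. The strongest of the family, 3261 bp downstream of the start of fbxa-190, had 117 in replicate 1 and 121 in replicate 2. That nearest to Y102A11A.1 had 107 and 106, and that nearest to Y41E3.13 had 133 and 76.1. The weakest of the family, in an intron of the transporter gene oat-1, had 37.5 and 31.2 and was in neither list. In all, 4 were in both lists, 4 in 1 list and 5 in neither. The 20-base word most common in the family occurred 452 times in the nuclear genome, with 30 copies in members and 40 in nuclear peaks of any class. Outside the set, 3 other nuclear peaks and 91 weaker regions shared sequence with this family.

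Family 2 had 11 members at 10 separate places, and had both replicates' support at nearly every place. Both replicates listed 10 of the 11, and the exception, in an intron of ptr-17, was in replicate 1's list. Apart from the shoulder in hpo-38, its members had pooled signals from 98.9 to 174. Signals in replicate 1 ran from 52.8 to 109 and in replicate 2 from 46.4 to 81.7. The sequence was almost free of soft-masking, with a median of 5.47% of the window, and its median GC content was 52.7%. Among its hosts and nearest genes, ftn-1 encodes ferritin, pmt-2 the methyltransferase above, dmd-10 a DM domain factor and clp-7 a calpain-like protease. The most common 20-base word of the family occurred 18 times in the genome, with 10 copies in members and 12 in nuclear peaks of any class.

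Family 3 had 11 members, with pooled signals from 72.8 to 162. Of these, 10 held TGGCNNAGTGG, the box A word of tRNA promoters, which is part of the stretch of capitals in the F48F7.5 and nhr-277 windows. Box A was found in 3.73% of all members, 0.476% of weaker regions, 1.2% of promoter peaks away from RNA genes and 10.3% of peaks whose nearest RNA gene is a tRNA gene. Box B was found in 1.49% of members, 0.735% of weaker regions and 57.3% of those tRNA peaks. Of the 21 members with either exact word, none held both, and 10 were outside the families. Looser forms of the boxes were not counted, so a second box can be missed. The printed nhr-277 window, for example, reads GGTTCAATTCC downstream of its box A word. The nearest annotated RNA gene start of family 3 was at least 1329 bp away from every summit, beyond the 300 bp of the rule. The nhr-277 window lay 24 bp from the start of the tRNA pseudogene Y94H6A.t1, with a signal of 82.6 in replicate 1 and 75.2 in replicate 2. The F48F7.5 window had 69.1 and 98.7, and that nearest to srsx-8, a chemoreceptor gene, had 69.6 and 64.1. Replicate 2 was the higher in F48F7.5 and replicate 1 in the other 2.

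Smaller families held several of the strongest members. Family 4, with 5 intergenic members, included those nearest to C46C2.7, zip-11 and K07D4.2, and 4 of the 5 were in both lists. The exception, nearest to ari-1.4, had 40.4 in replicate 1 and 44 in replicate 2. Family 5, with 4 intergenic members, was led by the K08F11.1 peak, and a second peak near the same gene had 90.7 and 43.3. The plot of signal by family shows strong and weak members within families 1, 4 and 5.

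**Figure D3:**
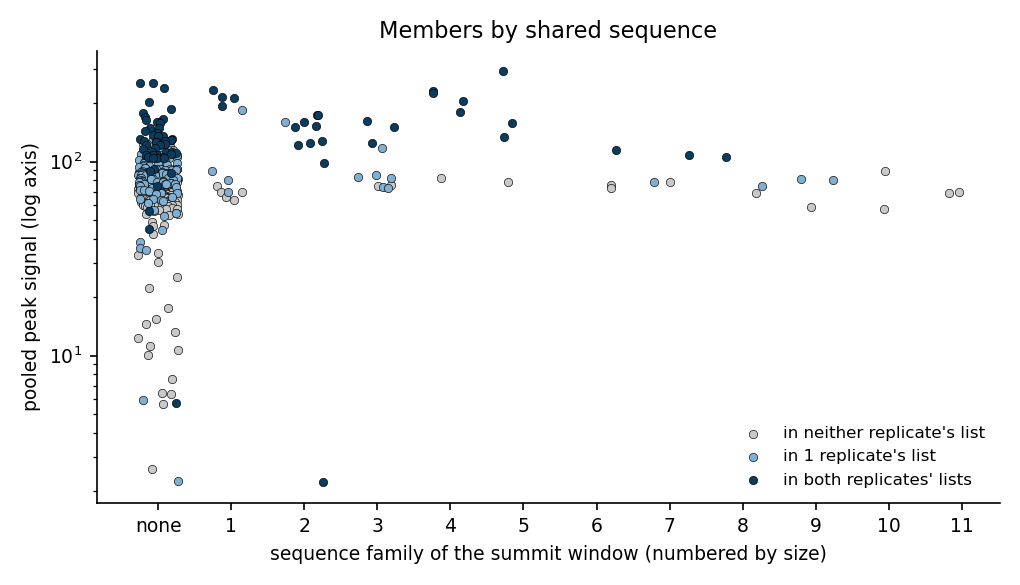
Pooled peak signal of the 402 members on a log axis, by sequence family, with members of no family at the left and families numbered by size. Each point is 1 member, and darker points were listed by more replicates. Families 2, 4 and 5 are mostly dark and high.

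Repeated sequence was also counted across the whole genome. In 55 members (13.7%, 10.7 to 17.4) at least 50% of the 36-base words of the window occurred more than once in the nuclear genome, against 7.46% of weaker regions (Fisher's exact test, odds ratio 1.97 from 1.45 to 2.63, adjusted p = 6.8e-05). It was 3.85 without replicate 1 and 2.86 without replicate 2. Other peaks away from RNA genes stood at 4.98%, an odds ratio of 3.03 (Fisher's exact test, adjusted p = 4.5e-06), in a comparison that was not planned. Without regions that share sequence with a member elsewhere, the shares were 4.68% of 342 members and 6.55% of weaker regions, with an odds ratio of 0.7. These values describe what is left and test nothing, since the regions set aside were chosen for shared sequence. Soft-masked sequence went the other way against weaker regions. Windows over 50% soft-masked were 13.4% of members (10.4 to 17.1), 27.7% of weaker regions and 4.49% of other nuclear peaks, with no test.

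Introns were less frequent in the set than among weaker regions. Of the members 35.1% (30.6 to 39.9) lay in introns, against 55.8% of weaker regions (Fisher's exact test, odds ratio 0.429 from 0.346 to 0.529, adjusted p = 1.5e-15). Introns made up 52.42% of all bases that meet the location rule. The 141 intron members fell in 116 host genes, and 22 hosts or host pairs held more than 1. Hosts were not counted in this way for weaker regions, so these counts are a description.

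Some single introns held several members. pqn-41, which encodes a glutamine-rich protein, held 4 members in its intron 14 of 22, 10372 bp long, with pooled signals from 15.3 to 122. Its strongest had 76.4 in replicate 1 and 45.4 in replicate 2. tir-1, the SARM1 homolog of innate immunity, Y43F8B.2 and ZK470.2 held 3 each, counted over all introns of the gene. lag-1, the DNA-binding effector of Notch signalling, held 2 in its first intron, with 66.2 and 43.1 for the stronger in replicates 1 and 2. daf-5, a Ski-related cofactor of the dauer TGF-beta pathway, held 2 in its first intron of 14446 bp, and neither replicate listed them. hlh-30, the TFEB homolog, held 2 in intron 2 of 10.

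First introns were frequent among intron members. In at least 1 transcript of the host, 65 of 141 summits (46.1%, 38.1 to 54.3) lay in the first intron, against 27% of weaker intron regions (Fisher's exact test, odds ratio 2.31 from 1.63 to 3.26, adjusted p = 6.6e-06). First introns held 28.14% of the intron bases that meet the rule. By the longest coding transcript alone, 27.7% of members and 19.6% of weaker regions lay in intron 1 (Fisher's exact test, odds ratio 1.57, adjusted p = 0.0289). The introns of members were longer, with a median of 3728 bp (47 to 21230), against 872 bp for weaker regions. Within deciles of intron length the odds ratio was 1.28 (0.901 to 1.82, Cochran-Mantel-Haenszel test, n = 141, adjusted p = 0.224), a comparison added after the data had been seen, and it did not pass. Nor did the odds ratio of 1.58 without replicate 1 or of 1.81 without replicate 2.

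The share with a protein-coding start within 2000 bp did not differ detectably from that of weaker regions. The nearest protein-coding start was a median of 2088 bp away, from 224 to 41606 bp, and within 2000 bp for 48% of members and 49.5% of weaker regions (Fisher's exact test, odds ratio 0.943 from 0.77 to 1.15, adjusted p = 0.581). That limit joins classes that lean opposite ways and were not tested on their own. Up to 1000 bp lay 11.7% of members and 16.9% of weaker regions, and from 1000 to 2000 bp 36.3% and 32.6%. A further 39.1% of members lay from 2000 to 5000 bp and 7 members beyond 10000 bp. Of the intergenic members, 56.3% were upstream of the nearest start, against 62.7% of weaker intergenic regions. At the limits of the rule, the members nearest to the window lay 1013 bp upstream of acer-1 and mtm-3, with pooled signals of 112 and 85.2, and 224 bp downstream of a ZK470.2 start, with 75.4. Just inside the window, and so not members, were peaks 997 bp upstream of mstr-1 (101) and 192 bp downstream of sms-3 (96.6). The member closest to an RNA gene start, at 308 bp, was the peak nearest to bcat-1 with a pooled signal of 108, and a peak at 283 bp with 123, nearest to sel-15, was left out.

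**Figure D4:**
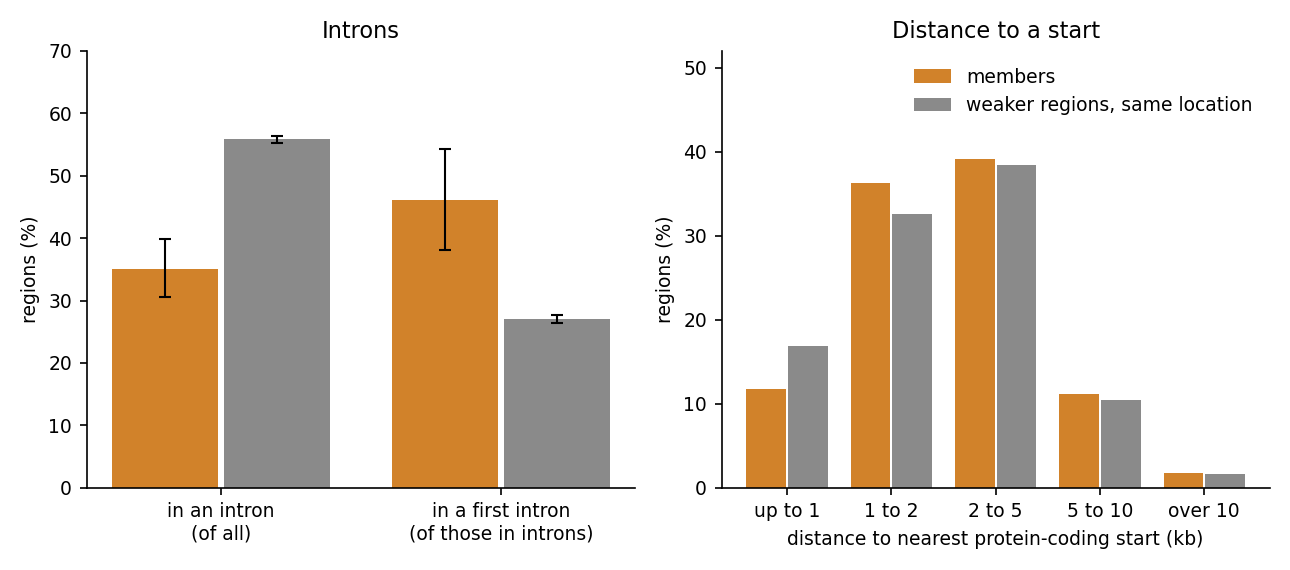
Left, share of regions in introns and, of those, in first introns, for members and weaker regions of the same location, with 95% Wilson intervals. Right, share of regions by distance to the nearest protein-coding start. Members lie in introns in 35.1% and weaker regions in 55.8%, and the distance class up to 1000 bp holds 11.7% and 16.9%.

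Members were less frequent on the autosome arms than weaker regions were. Arms, taken as the outermost 30% on both sides of each autosome, carried 61.4% of the 306 members on autosomes and 70.8% of weaker autosomal regions (Fisher's exact test, odds ratio 0.657 from 0.518 to 0.836, adjusted p = 0.00111). The odds ratio of 0.64 without replicate 1 did not pass, and that of 0.538 without replicate 2 did. Arms so defined cover most of each autosome, and the share of bases meeting the rule that lie on them was not counted. The comparison is therefore with weaker regions only, and shows no depletion relative to chromosome length. By chromosome, with no test, the members' share was above that of weaker regions on X (23.9% and 19.1%) and IV (19.2% and 13.9%). It was below on I (11.4% and 16%), II (14.2% and 15.7%) and V (15.9% and 19.8%), and on III the shares were 15.4% and 15.5%.

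No excess of other RNA genes nearby was detected. The start of a miRNA, piRNA, lincRNA, antisense RNA or pseudogene was within 300 bp of 4.98% of members and 3.75% of weaker regions (Fisher's exact test, odds ratio 1.34 from 0.808 to 2.11, adjusted p = 0.212). For miRNAs alone the counts were 4 members (0.995%) and 0.189% of weaker regions. The strongest of these lay 250 bp from mir-80, nearest to K01F9.2, and had 64.3 in replicate 1 and 60.5 in replicate 2. The others were at mir-4930, mir-72 and mir-229, and neither replicate listed the first 2. Starts of tRNA pseudogenes were within 300 bp of 3 members (0.746%), at unc-104, nhr-277 and hlb-1, and of 0.297% of weaker regions, with no test.

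All words of 6 bases were counted, each together with its reverse complement. Of these, 122 (5.87%) were more frequent in the members' windows than in those of weaker regions and 63 (3.03%) were less frequent, at an adjusted p under 0.05 within deciles of GC content (Cochran-Mantel-Haenszel test, Benjamini-Hochberg adjustment over all words). Fewer words were called on a single replicate's lists, 55 without replicate 1 and 76 without replicate 2. AGAGAC had the lowest p and was in 29.4% of members and 8.01% of weaker regions (n = 402, odds ratio 3.68, adjusted p = 1.6e-28). GAGAGA, which overlaps it, was in 31.8% and 11.9% (n = 402, odds ratio 2.72, adjusted p = 7.3e-17). CACGTG, the E-box that many basic helix-loop-helix factors bind, was in 14.2% and 4.26% (n = 402, odds ratio 3.59, adjusted p = 9.1e-17). Its odds ratio was 2.05 without replicate 1, which did not pass (n = 133, adjusted p = 0.266), and 2.82 without replicate 2, which did. TGATAA, which holds the core word of GATA factors and was chosen after its values were seen, was in 24.6% and 14.8% (n = 402, odds ratio 2.86, adjusted p = 4.7e-16), and its odds ratio without GC strata was 1.88. The mean GC content of the windows was 45.1% in members and 38.6% in weaker regions.

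The 3 less frequent words of lowest p were CTGAAA, then TTGAAA and last TCTGAA. The first was in 14.9% of members and 31.5% of weaker regions (n = 402, odds ratio 0.516, adjusted p = 0.00014). The second was in 21.6% and 44.6% (n = 402, odds ratio 0.559, adjusted p = 0.00039), and the third in 8.96% and 21.7% (n = 402, odds ratio 0.464, adjusted p = 0.00063). On a single replicate's lists, CTGAAA did not pass (0.436 without replicate 1 and 0.596 without replicate 2), nor did TCTGAA (0.695 and 0.54), while TTGAAA did (0.42 and 0.531). Without GC strata TTGAAA stood at 0.344.

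Peaks elsewhere held the 4 named higher words too. Promoter peaks away from RNA genes held AGAGAC in 23.3%, GAGAGA in 32.5%, CACGTG in 10.4% and TGATAA in 15.5%. Against all 623 other peaks away from RNA genes, also not a planned comparison, 3 words were called higher in the members (0.144%) and 5 lower (0.24%). The 7 named words did not pass. The 3 higher words were ACTAAC (7.96% against 2.41%, n = 402, odds ratio 3.78, adjusted p = 0.0331), CATACG and CCTGTC. The first and second of these can be read in the printed F48F7.5 window of family 3 as their reverse complements, GTTAGT and CGTATG.

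At least 1 of these 4 higher words lay within 100 bp of the summit in 263 members, 65.4% (60.6 to 69.9), against 53.2% of promoter peaks and 31.5% of weaker regions. The words were named for their frequency in these same windows against the same weaker regions, so this share and its place near the summit follow in part from that choice and support nothing further. Counted in bins of 25 bp, the share of members with any of the 4 went from 3.48% at 400 bp before the summit to between 14.2% and 17.2% from 75 bp before it to 100 bp after it, and to 3.73% at 400 bp after it. In weaker regions it stayed between 4.72% and 5.52%.

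**Figure D5:**
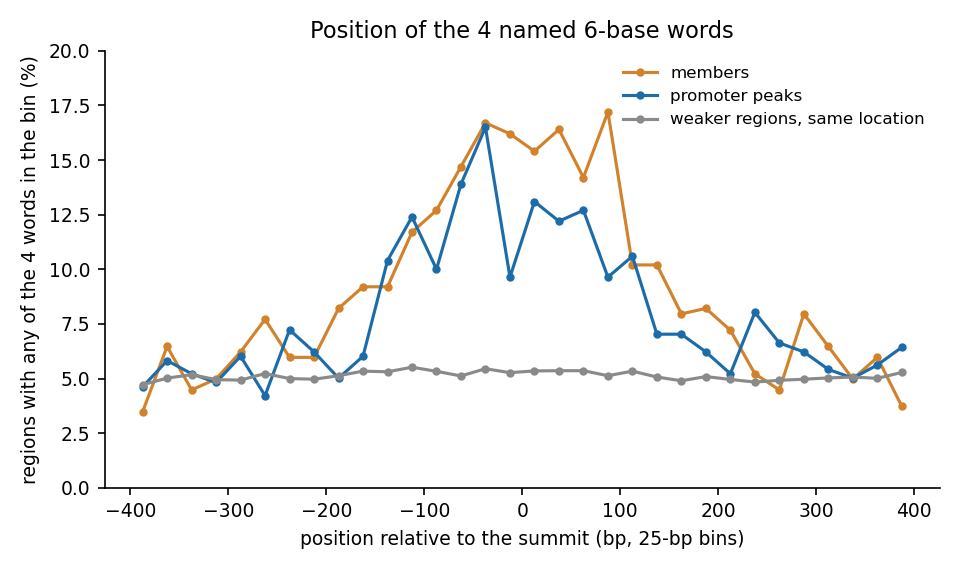
Share of regions with any of the 4 named words in each 25-bp bin, by position relative to the summit, for members, promoter peaks away from RNA genes and weaker regions of the same location. Members reach 17.2% and promoter peaks 16.5%, while weaker regions stay between 4.72% and 5.52%.

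The TEAD word CATTCC, on either strand, was in 51 members, 12.7% (9.78 to 16.3), against 8.39% of weaker regions (Cochran-Mantel-Haenszel test within GC deciles, n = 402, odds ratio 1.51 from 1.12 to 2.03, adjusted p = 0.0117). Promoter peaks away from RNA genes held it in 7.03% (5.1 to 9.62), and members in no family in 10.8% (7.95 to 14.6), intervals that overlap. Against the 623 other peaks away from RNA genes the odds ratio was 1.92 (1.24 to 2.97, Cochran-Mantel-Haenszel test, n = 402, adjusted p = 0.00709). That comparison was not planned, and it counts each copy of a sequence family as a region. All 13 windows of family 1 held CATTCC, which in the printed Y102A11A.1 window stands in the unit GGAACATTCC. Without regions that share sequence with a member elsewhere, it was in 10.8% of members and 8.14% of weaker regions, given as a description. The odds ratio of 1.52 without replicate 1 did not pass, nor did 1.22 without replicate 2. Within 50 bp of the summit it was 2 (n = 402, adjusted p = 0.00029). For the longer word ACATTCC, in 6.47% of members and 2.72% of weaker regions, it was 2.66 (n = 402, adjusted p = 5.3e-06). The odds ratios for 50 bp, for ACATTCC and against other peaks were not recounted without regions that share sequence. The family 1 unit GGAACATTCC holds the longer word. None of the 5 windows printed first held a copy of CATTCC.

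A list of genes of EGL-44 and the Hippo pathway, with touch neuron genes such as mec-3 and mec-4, was checked. In it, 1 gene was the host or nearest gene of a member. This was yap-1, the YAP homolog, with a peak 4438 bp upstream of its start. Its signal was 44 in replicate 1 and 16.5 in replicate 2, and neither replicate listed it. The list's genes were the host or nearest gene of 0.249% of members and 0.121% of weaker regions.

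By symbol family, nuclear hormone receptor genes named 12 members (2.99%) and 1.69% of weaker regions, and helix-loop-helix genes named 3 (0.746%) and 0.169%. The strongest nhr- member lay 2558 bp upstream of nhr-88, with 96.4 in replicate 1 and 77.7 in replicate 2, and both lists held it. The strongest hlh- member was 4095 bp from hlh-29, a gene related to the HES repressors, with 71.9 and 49.5. The other 2 hlh- members both lay in intron 2 of hlh-30, so the 3 come from 2 genes. Chemoreceptor genes named 10 members (2.49%) and 3.33% of weaker regions, led by srv-14 and srsx-8, both in sequence families. The unc- genes named 6 (1.49%) and 1.32% of weaker regions, led by unc-104 and by unc-51, the ATG1 kinase of autophagy, whose peak had 29.3 and 45.6. F-box genes named 4 (0.995%) and 1.01% of weaker regions, led by fbxa-190 and fbxb-76. Neuropeptide genes named 3 (0.746%) and 0.607%, led by nlp-40 and nlp-1. The lin- genes named 2 (0.498%) and 0.588% of weaker regions, with lin-42 and lin-14 of the heterochronic pathway. The single members of the egl-, col- and clec- families, each 0.249% of the set, were at egl-27, col-88 and clec-215, and these families named 0.55%, 0.31% and 0.815% of weaker regions. No member was named by a ceh-, twk-, msp- or his- gene. These families named 0.348%, 0.307%, 0.0479% and 0.0224% of weaker regions, so a count of 0 in a set of this size says little. These counts are descriptions and carry no test.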

How the data were processed

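Regions and their signal values were deposited by the authors as peak lists on assembly ce11, per the labels: a pooled and a conservative thresholded list, each replicate's thresholded list, and the ranked list behind each. Each ranked list also holds a −log10 value, deposited by the authors, for the global irreproducible discovery rate (IDR), and an IDR of 0.01 or less was taken as passing. Not given in the sources used here were the aligner, the peak caller, the scaling of signal and the handling of reads that map to several places. Read depth is unknown from these lists. The 95% Wilson intervals therefore cover counts of regions and nothing else. In the ranked lists, 8 further columns of per-library values were not used.

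Every region ended within its chromosome in the RefSeq WBcel235 genome. Genes came from Ensembl release 115. Summits were placed by script (Python 3.11.15 with pandas 2.3.3, NumPy 2.4.6 and SciPy 1.17.1, and Matplotlib 3.10.9 for figures). A replicate's value is its strongest overlapping region. Shares were compared by two-sided Fisher's exact tests or Cochran-Mantel-Haenszel tests across 10 GC strata, with Benjamini-Hochberg adjustment over 9 tests or over all words, and the scripts were tested on simulated data. The members, lists and tests were chosen with earlier results of these data known. Named regions were the 10 strongest in introns and 10 between genes, members of the EGL-44 and Hippo list, and up to 2 per symbol family. Named words were the 3 of lowest p in each direction. Other names were chosen after their values were seen.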

Additional observations from a re-analysis of the deposited data

Results flagged for a closer look

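Some regions passed the reproducibility limit in the pooled ranked list and met the location rule, yet were outside the thresholded list that defines the set. There were 18, and in 16 of them at least 50% of the 36-base words of the window occurred more than once in the genome. The strongest, nearest to Y7A5A.7 on the X chromosome (chrX:15810954-15811263), had a pooled signal of 1056, and 2 of the 18 exceeded the 292 of the strongest member. The reason for their absence from that list is unknown here. Of the 18, 2 shared sequence with a member elsewhere, both matching the tandem arrays of family 1.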

How the results depend on the processing

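The 402 members became 132 at a global IDR of 0.001 or less and 133 to 181 on a single replicate's lists. The share in introns and the share of repeated sequence passed the test in the same direction under every planned setting, where regions that share sequence stayed in. Setting aside regions that share sequence with a member elsewhere was added after the data and the families' support had been seen, so its odds ratios are descriptions and not tests. They were 0.7 for repeated sequence, which that choice itself lowers, 0.586 for both lists, 1.25 for CATTCC and 1.04 for a start within 2000 bp. At the stricter IDR the odds ratios were 1.83 for first introns and 1.24 for CATTCC, neither passing, 1.01 for both lists and 1.17 for signal, both turned. Without peaks at RNA genes, both lists (1.12) and signal (1.03) turned, and with the wider promoter window signal stood at 0.834. With the narrower window, the share within 2000 bp turned to 1.07. On the conservative list, other RNA genes turned to 0.937. First introns fell to 1.28 within intron length strata.

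On 1 replicate's lists, odds ratios ran from 0.874 to 0.881 for signal, 1.58 to 1.81 for first introns, 0.538 to 0.64 for arms, of which the latter did not pass, 0.978 to 1.08 for other RNA genes and 1.22 to 1.52 for CATTCC. Called words numbered 185, with 612 without GC strata, 119 within 50 bp, 55 to 76 on 1 replicate's lists and 8 against other peaks away from RNA genes, and no called word turned direction. Except where these settings have their own construction (fewer regions, another comparison group), the cause was not tested. No paired analysis was possible because there is 1 group. Depth is unknown, so absence from a list does not show absence of binding.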
